A study of Mus musculus with 8 samples.

Results

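Voltage-gated and related ion channels form the set of genes described here: the potassium channel family (symbols starting with Kcn), the voltage-gated sodium channels (Scn), the hyperpolarization-activated pacemaker channels (Hcn) and the voltage-gated calcium channels with their accessory subunits (Cacn). Members were chosen by symbol alone, through the RefSeq accession of each array probe. A calcium channel gene that the rule leaves out was not analysed here. Of 20141 genes with a symbol on the array, 137 were members, with 189 probes. A probe was retained when its signal was well above background, as flagged by the scanner software, on at least 4 of the 8 arrays, and each gene was represented by its retained probe with the highest mean signal. This left 83 members, or 60.6% of them, compared with 75.2% of all genes with a symbol.

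Adult male C57BL/6 mice underwent either permanent occlusion of the anterior interventricular coronary artery, which causes a myocardial infarction (MI), or a sham operation. RNA of the heart, labelled as ventricles, was taken 24 hours after surgery from 4 MI and 4 sham-operated mice. Each mouse was measured on 1 single-colour Agilent array. All were operated under isoflurane anaesthesia, no genetic modification was named for either group, and tissue of the infarct was not separated from the rest of the sample.

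Each beat of the heart starts with inward sodium current, is held by inward calcium current and is ended by outward potassium currents. Pore-forming subunits carry the current, and accessory subunits change how many channels reach the membrane and how fast they open and close. In the mouse ventricle the transient outward current and several delayed rectifiers end the action potential, inward rectifiers hold the resting potential, and pacemaker and acetylcholine-activated channels are known mainly from the sinus node and the atria.

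Values are log2 signals, shifted between arrays by the signal of the RNA spike-ins added before labeling. A member was called when its limma p, after the Benjamini-Hochberg adjustment across 34038 retained probes, fell below 0.05. On each array 58.6% to 66.4% of spots exceeded background clearly, and arrays of the same group correlated with r between 0.988 and 0.994. The spike-ins and the bulk of the probes placed some arrays differently: the log2 offset from the spike-ins, centred over the arrays, exceeded the centred 75th percentile by 0.34 in MI replicate 2 and by 0.38 in sham replicate 2, while this difference was between -0.27 and 0.12 in the other arrays. After spike-in scaling MI replicate 2 had the lowest MI value in 74 of 82 members with a value in every MI mouse, and sham replicate 2 the lowest sham value in 54 of 83. After scaling each array to its 75th percentile these counts were 25 and 20. Values that follow are from spike-in scaling unless the 75th percentile is named, and the latter is given wherever it moved a call, a sign or the overlap of the groups of a member described.

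Heart muscle markers were detected throughout. All 12 cardiomyocyte markers (among them Tnnt2, Myh6, Myl2 and Ttn) were retained. None was called after spike-in scaling, and Pln, the inhibitor of the calcium pump, was called lower after 75th percentile scaling (-0.68, adjusted p = 0.00741). Of the 12, 10 had a lower mean in MI mice under either scaling. Their summed signal (the scaled processed signal of the scanner software, in its units) was 2678000 to 4029000 in MI and 2971000 to 4126000 in sham-operated mice. Atrial myocyte markers (Myl7, Myl4, Sln, Nr2f2 and Bmp10) were also present, although the labels name ventricles only. None of the 5 was called after spike-in scaling, while Nr2f2 was called lower after 75th percentile scaling (-0.36, adjusted p = 0.0474). The other 4 had a higher mean in MI mice under either scaling. The median log2 fold change of the list was 1.23, and 1.11 after 75th percentile scaling. The summed signal of the 5 was 76160 to 161500 in MI mice and 4888 to 196800 in sham-operated mice, with the lowest value in sham replicate 4 and the highest in sham replicate 2. Of 9 retained leukocyte genes, 6 were called higher in MI mice. Csf3r, Itgam and Lyz2 differed by 0.09, 0.14 and 0.16 and were not called, and Csf3r turned to -0.03 after 75th percentile scaling. The summed signal of the 9 was 243500 to 345700 in MI mice and 85440 to 127200 in sham-operated mice.

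The members that the results turn on include Kcnj5, Kcnd2 and Kcne3, and the 250 bases before their RefSeq transcription starts are given for the sequence context of genes that were called or changed side of the threshold with the scaling. RefSeq lists 1 start for Kcnj5, 1 for Kcnd2 and 2 for Kcne3. The windows lie on GRCm38.p6 at chr9:32344345-32344594 (minus strand) for Kcnj5, chr6:21215096-21215345 (plus strand) for Kcnd2, and chr7:100176420-100176669 and chr7:100178433-100178682 (plus strand) for Kcne3. They are written 5′ to 3′ in the direction of transcription, and capitals mark any match on either strand to 4 motifs: the GC box GGGCGG, the CCAAT box CCAAT, the TATA box TATAAA and the E-box CACGTG.
Kcnj5: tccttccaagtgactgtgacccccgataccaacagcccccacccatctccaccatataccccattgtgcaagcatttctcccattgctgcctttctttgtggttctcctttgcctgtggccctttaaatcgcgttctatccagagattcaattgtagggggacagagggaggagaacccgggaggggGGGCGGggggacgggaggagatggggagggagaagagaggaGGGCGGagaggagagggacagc
Kcnd2: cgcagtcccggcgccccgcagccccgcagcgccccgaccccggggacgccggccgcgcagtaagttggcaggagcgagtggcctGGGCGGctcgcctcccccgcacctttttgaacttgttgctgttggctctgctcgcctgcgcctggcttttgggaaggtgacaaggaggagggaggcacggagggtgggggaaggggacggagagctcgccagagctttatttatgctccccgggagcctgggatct
Kcne3 first start: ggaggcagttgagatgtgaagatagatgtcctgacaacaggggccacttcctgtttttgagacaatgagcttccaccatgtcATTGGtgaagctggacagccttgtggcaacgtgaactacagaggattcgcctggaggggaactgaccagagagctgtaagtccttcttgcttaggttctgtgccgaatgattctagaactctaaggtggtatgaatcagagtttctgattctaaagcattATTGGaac
Kcne3 second start: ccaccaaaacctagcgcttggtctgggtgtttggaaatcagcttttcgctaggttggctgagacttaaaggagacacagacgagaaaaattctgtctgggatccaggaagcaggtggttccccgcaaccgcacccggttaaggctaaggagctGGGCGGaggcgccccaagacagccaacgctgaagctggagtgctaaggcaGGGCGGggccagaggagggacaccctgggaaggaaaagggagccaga

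The window of Kcnj5 held 2 GC boxes and that of Kcnd2 held 1. The first window of Kcne3 held 2 CCAAT boxes, and the second held 2 GC boxes. No TATA box or E-box letters occurred in these 4 windows. A window was given for 100 of the 137 members. Across 32851 windows of all genes, 32.7% held a GC box, 33.8% a CCAAT box, 12.4% a TATA box and 6.02% an E-box. Of 134 windows of members, 43.3% held a GC box, 27.6% a CCAAT box, 3.73% a TATA box and 4.48% an E-box. A match describes the letters only.

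Detection differed between kinds of channel. Of the 137 members, 72 were well above background on all 8 arrays and 11 on fewer, while 24 reached it on 1 to 3 arrays and 30 on none. Sodium channels were detected most completely, with 11 of 12 genes retained, followed by the genes of the transient outward current with 7 of 8. Potassium channel accessory and silent subunits were retained for only 6 of 18 genes, and pacemaker channels for 2 of 4. Of 30 genes fixed as the core of cardiac electrophysiology, 27 were retained. The other 3 were Hcn4, the main pacemaker channel of the sinus node, and the accessory subunits Kcne1 and Kcne2. Hcn4 and Kcne2 were well above background on no array and Kcne1 on 1 array, so no difference is given for them.

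**Figure D1:**
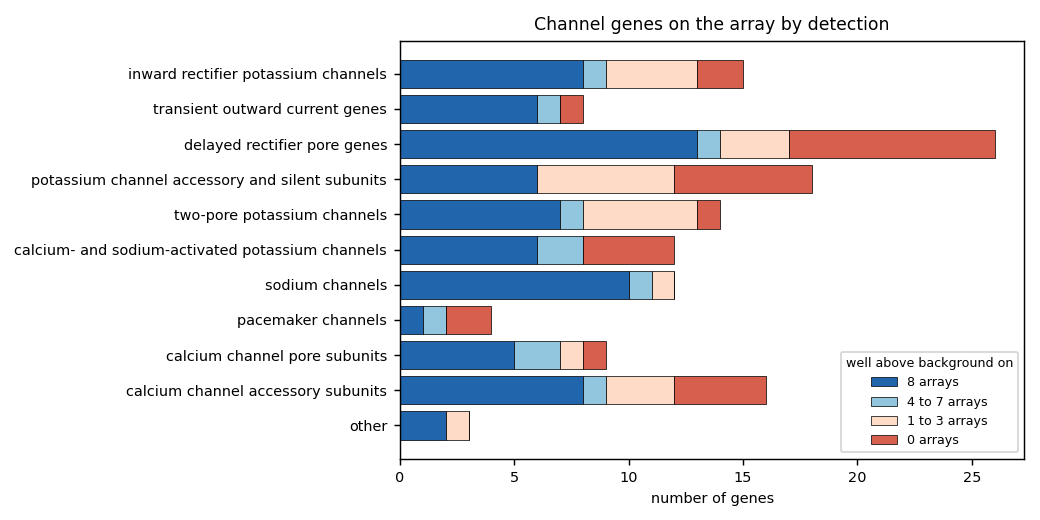
Number of channel genes on the array by role (bar length, in genes), divided by the number of the 8 arrays on which the gene's best probe was well above background. Sodium channels had 11 of 12 genes retained, against 6 of 18 potassium channel accessory and silent subunits.

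When arrays were aligned by the spike-ins, 5 channel genes were called, a share close to that of all genes. The called members were Kcne3, Cacna1d and Cacng1, which were higher after MI, and Kcnv2 and Kcnj5, which were lower. The probes of Cacna1d and Cacng1 were well above background on 4 MI arrays and 1 sham array, so both genes were retained only through the group in which they were high. When detection on all 8 arrays was required, neither was tested and the called members were Kcne3, Kcnj5, Kcnv2 and Kcna6. The 5 made up 6.02% of the 83 members, next to 6.53% of all genes called in this comparison, of which 5.68% were higher and 0.851% lower. All 5 changed by more than 2-fold, Cacna1d and Cacng1 included, next to 5.32% of all genes that were called and did so. The median log2 fold change of the members was 0.04, next to 0.07 over all genes. With the 75th percentile scaling 17 members were called, 4 higher and 13 lower, or 20.5% next to 22.2% of all genes (10.4% higher and 11.9% lower). That scaling lowered the log2 fold change of each gene with a value on all 8 arrays by 0.124 and moved the share of lower calls among all called probes from 13.4% to 48.6%. All 5 genes called by the spike-ins were also called by the 75th percentile. Of the 17 calls, 9 held whichever mouse was left out (these 5 with Kcnd2, Kcna1, Kcna6 and Scn4b), while those of 8 others, among them Kcnn2, Kcnj8, Kcnab1, Scn3a, Scn10a, Cacna1a and Kcnq1ot1, were lost without some mice. The groups of each of these named genes were separate after that scaling. Without MI replicate 1, MI replicate 2 or sham replicate 3 the count was 11. In bulk RNA, fewer cells of a type and less RNA per cell cannot be told apart.

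**Figure D2:**
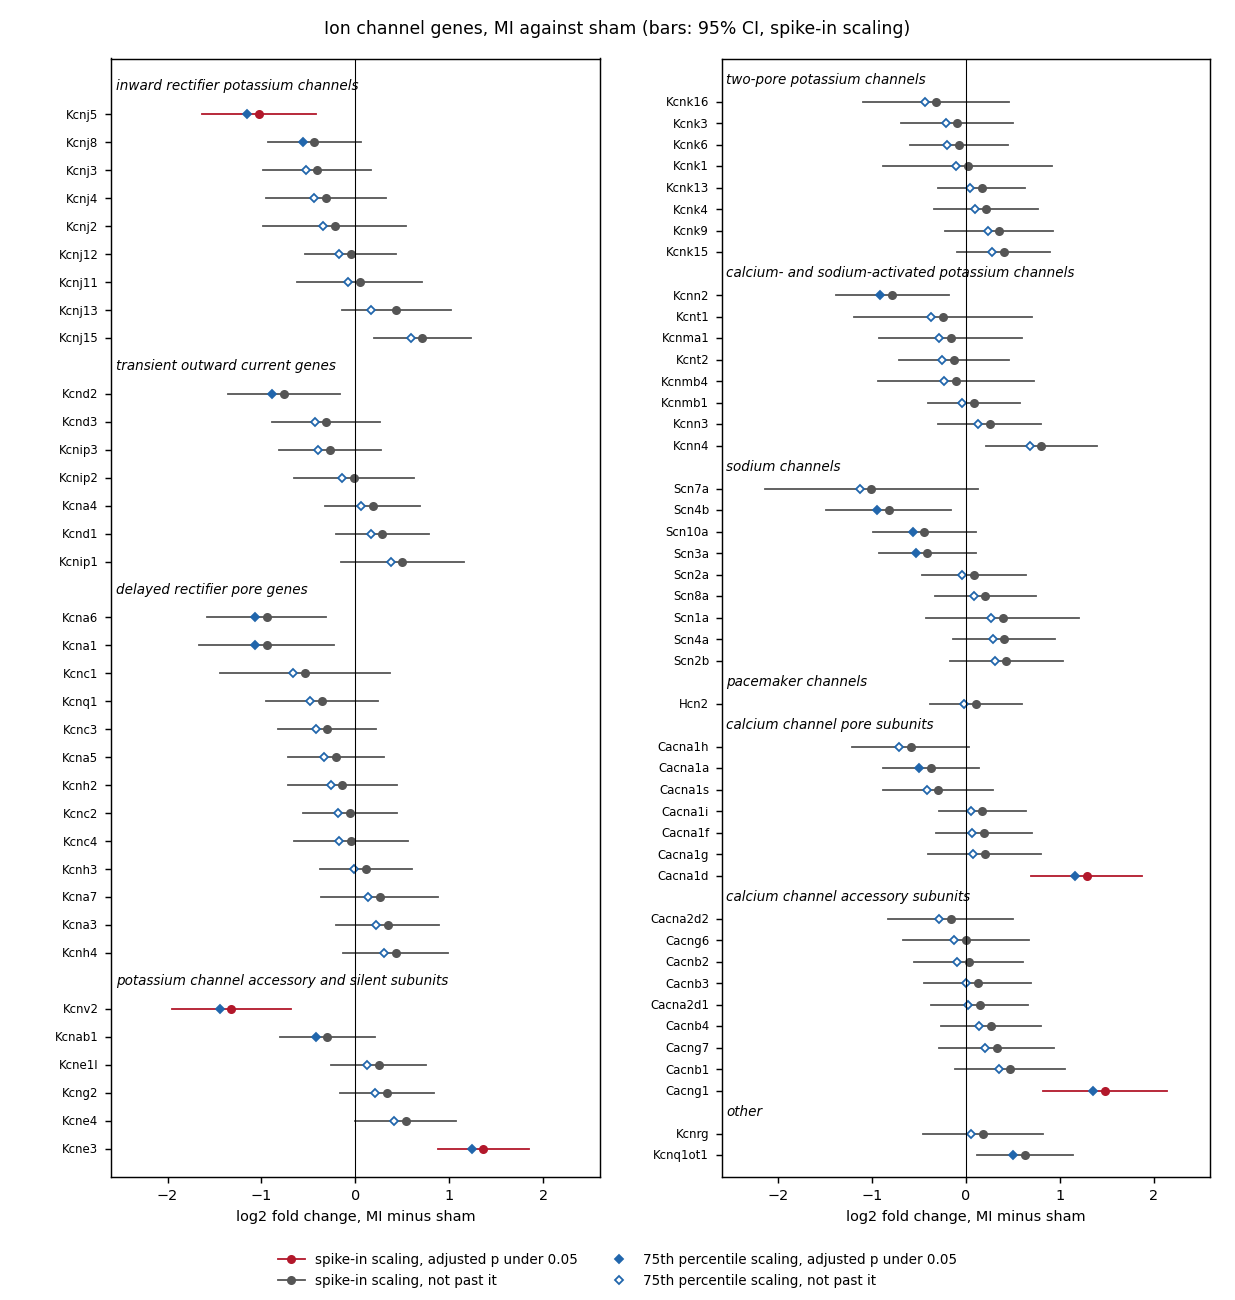
Log2 fold change (MI minus sham, horizontal axis) of 79 of the 83 retained channel genes, grouped by role. Circles with 95% confidence intervals give the spike-in scaling and diamonds the 75th percentile scaling. Red circles mark the 5 genes called after spike-in scaling, and filled diamonds the 16 called after 75th percentile scaling.

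Among the inward rectifiers, the acetylcholine-activated channel subunit Kcnj5 was the only gene called after spike-in scaling, and 9 of 15 genes were retained. Kcnj5 forms that channel together with Kcnj3 and is known mainly from atria and sinus node. The log2 signal of Kcnj5 was 11.47, 10.31, 11.47 and 11.58 in MI replicates 1 to 4 and 12.23, 12.24, 12.54 and 11.92 in sham replicates 1 to 4. Every MI value lay below every sham value. Kcnj5 was 2.04-fold lower after MI (log2 fold change -1.03, SE 0.29, limma adjusted p = 0.0462, exact permutation p = 0.0286). The difference was -1.35 in the first row of the slide and -0.71 in the second, and with the row as a block the adjusted p was 0.0559. The call was lost without MI replicate 1 or 2 or sham replicate 1, 2 or 3, where the log2 fold change lay between -1.11 and -0.73. After 75th percentile scaling it was -1.15 with an adjusted p of 0.0056. The summed signal of atrial markers overlapped between the groups and 4 of the 5 had a higher mean in MI mice, as given above. Their part in the difference of Kcnj5 was not tested.

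The partner Kcnj3 gave -0.41 (SE 0.27, adjusted p = 0.507) and -0.53 after 75th percentile scaling (adjusted p = 0.0516), and its MI and sham values overlapped under both. Sinus node and conduction markers are given beside Cacna1d. The ATP-sensitive channels, which open when ATP falls, did not pass the test after spike-in scaling. The log2 signal of Kcnj8, their pore in vessels, was 8.95, 8.84, 8.97 and 8.95 in MI mice and 9.47, 8.86, 9.75 and 9.38 in sham-operated mice. The MI values lay close together, and sham replicate 2 lay within their range. Kcnj8 differed by -0.44 (SE 0.24, adjusted p = 0.376) and by -0.56 after 75th percentile scaling, where it was called lower (adjusted p = 0.0304). Without MI replicate 1, 3 or 4 or sham replicate 3 or 4, that call was lost, at log2 fold changes of -0.56 to -0.50. Of 6 smooth muscle cell and pericyte markers, the pericyte marker Rgs5 was called lower after 75th percentile scaling (-0.46, adjusted p = 0.0254) and Acta2, smooth muscle actin, higher (1.34, adjusted p = 0.0208). After spike-in scaling Rgs5 differed by -0.33 (adjusted p = 0.571), and Acta2 was called higher (1.47, adjusted p = 0.00432). The summed signal of the list was 31460 to 51840 in MI mice and 22290 to 29920 in sham-operated mice, and 29620 to 56850 against 26850 to 28920 after 75th percentile scaling. Acta2 was the brightest of the 6 in MI mice (mean log2 signal 14.54). Under either scaling 4 of the 6 had a lower mean in MI mice. The median log2 fold change of the list was -0.04, and -0.16 after 75th percentile scaling. The part of these cells in the difference of Kcnj8 was not tested. Kcnj11, the pore of cardiac muscle, differed by 0.04 (SE 0.31, 95% confidence interval -0.62 to 0.71) and by -0.08 after 75th percentile scaling.

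Kcnj2, the main pore of the inward rectifier current that holds the resting potential of ventricular muscle, was measured by a dim probe. Its log2 signal was 5.93, 4.14, 5.93 and 4.82 in MI mice and 5.24, 5.07, 5.94 and 5.45 in sham-operated mice. The MI values spread more widely than the sham values and covered most of their range. The difference of -0.22 did not pass the test (SE 0.36, 95% confidence interval -0.98 to 0.54, adjusted p = 0.831), nor did -0.35 after 75th percentile scaling (adjusted p = 0.450). The related pore Kcnj12 differed by -0.05, with an interval of -0.53 to 0.43. Kcnj15, which was picked after its values were seen, lay higher in every MI mouse than in any sham-operated mouse (0.71, SE 0.25) but was not called (adjusted p = 0.118). Its groups overlapped after 75th percentile scaling (0.59, adjusted p = 0.0579).

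The genes of the transient outward current were retained for 7 of 8 and none was called after spike-in scaling. Kcnd2 is a main pore of this fast repolarizing current in mouse ventricle. Its log2 signal was 9.25, 8.51, 9.52 and 9.78 in MI mice and 10.05, 9.87, 10.46 and 9.72 in sham-operated mice. MI replicate 4 lay above sham replicate 4, so the groups overlapped by this pair. The log2 fold change of -0.76 did not pass the test (SE 0.28, adjusted p = 0.154). After 75th percentile scaling the groups no longer overlapped and Kcnd2 was called lower (-0.88, SE 0.19, adjusted p = 0.0154), and this call held whichever mouse was left out.

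The other genes of this current gave smaller differences. Kcnd3, another pore, differed by -0.31 (SE 0.27, adjusted p = 0.640), and Kcna4, the pore of its slow component, by 0.18 (SE 0.24, adjusted p = 0.782). The accessory subunit Kcnip2, which brings these pores to the membrane, had a log2 signal of 9.39, 8.25, 9.06 and 8.46 in MI mice and 9.48, 8.30, 8.74 and 8.70 in sham-operated mice. These values interleaved, and the difference of -0.02 had an interval of -0.65 to 0.62. Its sign turned with the mouse left out and within 1 row of the slide.

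Delayed rectifier pores, which end the plateau of the action potential, were retained for 14 of 26 genes. None was called after spike-in scaling, and 3 were called lower after 75th percentile scaling, among them Kcna6 and Kcna1. Kcna1 and Kcna6, best known from nerve and named here after their values were seen, each differed by -0.94 (adjusted p = 0.137 and 0.0829) and by -1.07 after 75th percentile scaling (adjusted p = 0.0154 and 0.00625). The log2 signal of Kcna6 was 6.79, 5.86, 7.06 and 7.14 in MI mice and 8.08, 7.28, 7.90 and 7.37 in sham-operated mice, so that its groups did not overlap under either scaling.

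The remaining core pores of this group did not pass the test under either scaling. Kcna5, a pore of the ultrarapid current, differed by -0.21 (95% confidence interval -0.72 to 0.30), and by 0.27 in a further retained probe. Kcnh2, the pore of the rapid delayed rectifier, differed by -0.14 (-0.72 to 0.44), and Kcnq1, the pore of the slow one, by -0.36 (-0.95 to 0.24). The lncRNA Kcnq1ot1, transcribed antisense to Kcnq1, was matched by its own accession and named after its values were seen. It differed by 0.63 (SE 0.24, adjusted p = 0.171), with no overlap between the groups, and was called higher after 75th percentile scaling (0.50, adjusted p = 0.0451). A further retained probe gave -0.39 (SE 0.41, adjusted p = 0.717) and -0.51 after 75th percentile scaling (adjusted p = 0.524), with overlapping groups, so its direction depended on the probe.

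Accessory and silent potassium channel subunits held the calls with the smallest adjusted p among potassium channels, 1 in each direction. Kcne3 is a single-span accessory subunit that changes the gating of several potassium channel pores. Its log2 signal was 7.17, 6.55, 7.12 and 7.20 in MI mice and 5.80, 5.63, 5.64 and 5.53 in sham-operated mice. The sham values lay close together, and the lowest MI value stood well above them. Kcne3 was 2.57-fold higher after MI (log2 fold change 1.36, SE 0.23, adjusted p = 0.00123, exact permutation p = 0.0286, the smallest that 4 against 4 mice allow). A further retained probe of the gene gave 1.73 (SE 0.23) with no overlap. The difference was 1.15 in the first row of the slide and 1.57 in the second, 1.24 after 75th percentile scaling and 1.20 in the authors' normalized values, and it was called in each of these scalings. It was smaller, though still called, with the vsn model, which adds a constant to each signal before the log (0.39), and with normexp background correction (0.55). Of 9 leukocyte genes, 6 were called higher in the same mice, as given above, and their part in the rise of Kcne3 was not tested.

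Kcnv2 encodes a silent subunit that conducts no current alone and modifies the pores of delayed rectifiers. Its log2 signal was 6.56, 5.28, 6.37 and 6.44 in MI mice and 8.002, 7.35, 7.53 and 7.06 in sham-operated mice. All 4 MI values lay below the sham values, with MI replicate 2 the lowest. Kcnv2 was 2.50-fold lower after MI (log2 fold change -1.32, SE 0.30, adjusted p = 0.0133), and -1.45 on the log2 scale after 75th percentile scaling (adjusted p = 0.00267). Its fold change was -1.75 in the first row of the slide and -0.89 in the second, and -1.16 in the authors' normalized values, where it was also called. With the vsn model it was -0.46 and not called (adjusted p = 0.0716). The summed signals of cardiomyocyte markers overlapped between the groups and 10 of the 12 had a lower mean in MI mice, as given above. Their part in the difference of Kcnv2 was not tested. Of the other 4 retained subunits, Kcnab1 (named after its values were seen) was called lower after 75th percentile scaling, at -0.42 (adjusted p = 0.0289), next to -0.30 after spike-in scaling (adjusted p = 0.597).

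**Figure D3:**
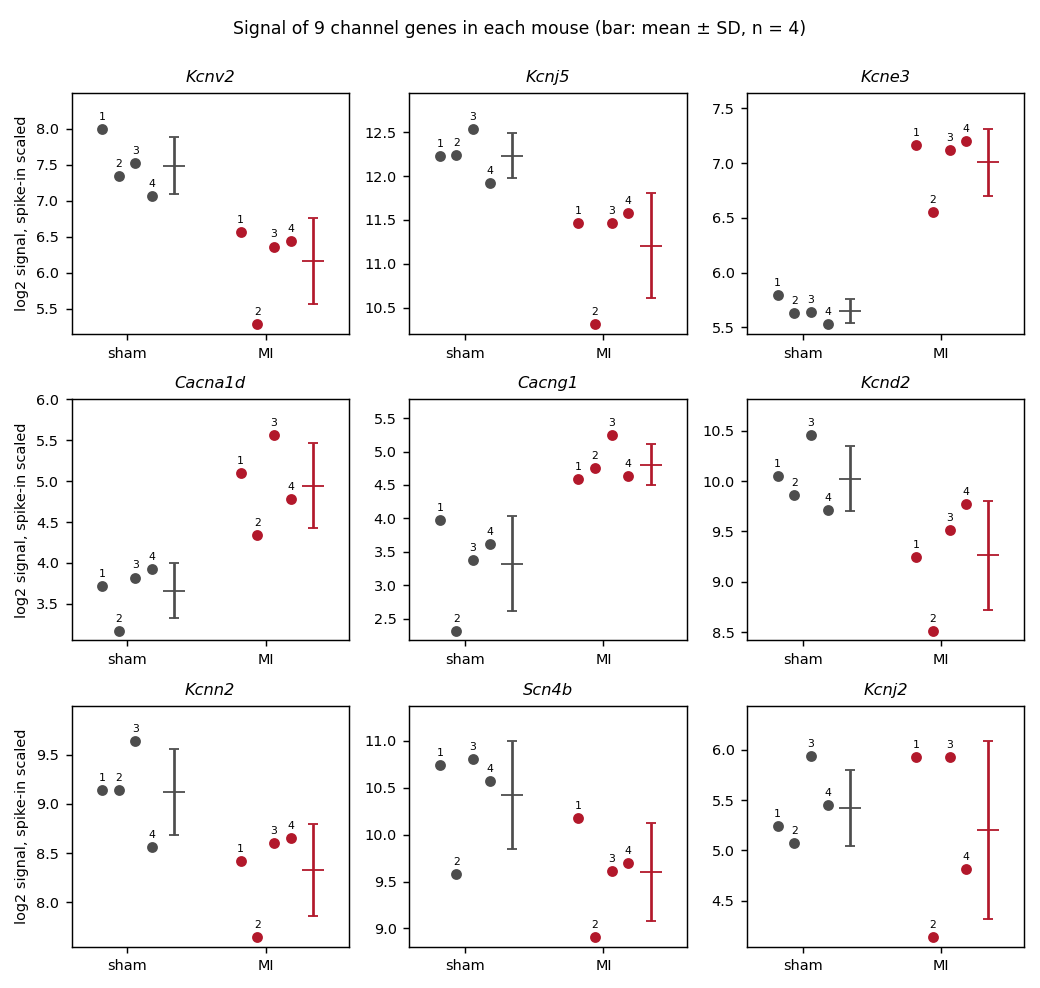
Log2 signal after spike-in scaling (vertical axis, a separate range in each panel) of 9 channel genes in the 4 sham-operated and 4 MI mice. Points are mice, numbered by replicate, and bars give the mean ± SD (n = 4). The groups were separate in Kcnv2, Kcnj5, Kcne3, Cacna1d and Cacng1 and overlapped in Kcnd2, Kcnn2, Scn4b and Kcnj2.

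Two-pore potassium channels, which carry background current, were retained for 8 of 14 genes, and none was called under either scaling. Kcnk3, the cardiac background channel of the core list, had a log2 signal of 13.28, 12.15, 13.19 and 12.93 in MI mice and 13.48, 12.64, 12.99 and 12.81 in sham-operated mice. The values interleaved, and the difference of -0.09 had an interval of -0.69 to 0.50.

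Among calcium- and sodium-activated potassium channels, 8 of 12 genes were retained and none was called after spike-in scaling. Kcnn2, a small-conductance channel opened by calcium, had a log2 signal of 8.42, 7.65, 8.61 and 8.65 in MI mice and 9.14, 9.14, 9.64 and 8.56 in sham-operated mice. Sham replicate 4 lay within the MI range and the other sham values above it. Kcnn2 differed by -0.79 (SE 0.28, adjusted p = 0.139) and was called lower after 75th percentile scaling (-0.91, SE 0.21, adjusted p = 0.0175), a call lost without MI replicate 2 (-0.83, adjusted p = 0.0522). Kcnn3, another channel of this kind, differed by 0.25 (SE 0.26, adjusted p = 0.703). Kcnn4, known from blood cells and named after its values were seen, differed by 0.80 (SE 0.28) and was not called (adjusted p = 0.123). Its groups were separate only after 75th percentile scaling (0.68, adjusted p = 0.0796).

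Sodium channels were retained for 11 of 12 genes, with none called after spike-in scaling and 3 called lower after 75th percentile scaling. The accessory subunit Scn4b gave 10.18, 8.91, 9.62 and 9.70 in MI mice and 10.74, 9.58, 10.81 and 10.57 in sham-operated mice. Sham replicates 1, 3 and 4 lay above all MI values and sham replicate 2 within them. Scn4b differed by -0.82 (SE 0.31, adjusted p = 0.166), was called without sham replicate 2 (-1.11, adjusted p = 0.0404), and was called lower after 75th percentile scaling (-0.95, SE 0.21, adjusted p = 0.0161).

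The other sodium channel genes called lower after 75th percentile scaling, Scn10a and Scn3a, are best known from neurons and were named after their values were seen. Scn10a differed by -0.57 and Scn3a by -0.54 under that scaling (adjusted p = 0.0306 and 0.0216), next to -0.44 and -0.41 after spike-in scaling (adjusted p = 0.420 and 0.436). Neuron markers were retained for 6 of 7 genes and none was called after spike-in scaling. With the 75th percentile, Stmn2 was called lower (-0.86, adjusted p = 0.00651) and Uchl1 higher (0.72, adjusted p = 0.00566). The summed signal of the list was 19650 to 32350 in MI mice and 17350 to 36400 in sham-operated mice, and 22180 to 26530 against 21910 to 32900 after 75th percentile scaling. Their part in the differences of Scn10a and Scn3a was not tested.

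The pacemaker channels showed no call under either scaling. Hcn2, the main member of this family in ventricle, had a log2 signal of 15.29, 14.77, 15.24 and 15.09 in MI mice and 14.92, 14.66, 15.18 and 15.22 in sham-operated mice. These ranges largely coincided, with a difference of 0.11 (95% confidence interval -0.39 to 0.60) that turned to -0.02 after 75th percentile scaling.

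Calcium channel genes held the other calls, 1 pore and 1 accessory subunit, and both were weak signals. Cacna1d is the pore of an L-type channel that opens at lower voltage and serves pacemaking. Its probe was well above background on 4 MI arrays and on only 1 sham array, so the gene entered the fit through the MI arrays. The log2 signal was 5.10, 4.34, 5.57 and 4.78 in MI mice and 3.72, 3.17, 3.82 and 3.93 in sham-operated mice. All MI values lay above all sham values (log2 fold change 1.29, SE 0.28, adjusted p = 0.01005), and the difference was 1.16 after 75th percentile scaling (adjusted p = 0.00299). A further retained probe gave 0.69 with overlapping groups (SE 0.32, adjusted p = 0.273). In the authors' values, which leave out spots not well above background, Cacna1d differed by 0.76 and was not called (adjusted p = 0.229). With the vsn model the difference was 0.12 and with normexp 0.18, neither called. The within-row differences were 1.28 and 1.30. Markers of sinus node and conduction cells were retained for 4 of 5 genes, with none called after spike-in scaling and summed signals of 1787 to 3466 in MI mice and 2904 to 5411 in sham-operated mice. After 75th percentile scaling these sums did not overlap (2010 to 2843 against 3642 to 5021), and Tbx3, a transcription factor of the conduction system, was called lower (-0.89, adjusted p = 0.0163), next to -0.76 after spike-in scaling (adjusted p = 0.168). After 75th percentile scaling Cntn2, Cpne5 and Isl1 differed by 0.29, -0.08 and -0.02, and none of them was called. The mean log2 signal of the list then overlapped between the groups (6.89 to 7.14 in MI mice, 6.93 to 7.37 in sham-operated mice). Tbx3 was the brightest of the 4. The sum and Tbx3 lay lower in MI mice under that scaling, as did Kcnj5, while Cacna1d lay higher. The part of these cells in either difference was not tested.

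Cacng1 is the gamma subunit of the skeletal muscle calcium channel. Its probe, too, was well above background on 4 MI arrays and on 1 sham array. The log2 signal was 4.58, 4.76, 5.25 and 4.63 in MI mice and 3.98, 2.32, 3.39 and 3.62 in sham-operated mice. The MI values lay above the sham values, which spread widely around their mean. Cacng1 differed by 1.48 (SE 0.31, adjusted p = 0.0084) by 1.35 after 75th percentile scaling (adjusted p = 0.0122), and by 1.52 and 1.44 within the rows of the slide. With the vsn model the difference was 0.11 and not called, and with normexp 0.27 and called. The authors' values gave 0.51 and no call (adjusted p = 0.415). Of 7 skeletal muscle fibre markers, Acta1, Tnni2 and Tnnt3 were retained, and Acta1, which heart muscle also expresses, was called higher (1.28, adjusted p = 0.0106). Tnni2 (0.20, adjusted p = 0.805) and Tnnt3 (0.80, adjusted p = 0.139) were not called under either scaling. Myh1, Myh2, Myh4 and Actn3 were not retained. Acta1 was the brightest retained marker of the list in MI mice, with a mean log2 signal of 14.54, next to 11.50 for Tnni2 and 6.60 for Tnnt3. The summed signal of the list was 22900 to 31880 in MI mice and 7799 to 17280 in sham-operated mice, and its part in the difference of Cacng1 was not tested.

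The T-type calcium channel pores, which open at low voltage, were not called. Cacna1h had a log2 signal of 8.60, 7.40, 8.55 and 8.47 in MI mice and 8.75, 9.23, 9.04 and 8.35 in sham-operated mice. Sham replicate 4 lay below MI replicates 1, 3 and 4, and the difference was -0.59 (SE 0.29, adjusted p = 0.326). The groups were separate after 75th percentile scaling (-0.71, adjusted p = 0.07997), and a further retained probe gave 0.06 after spike-in scaling. Cacna1g differed by 0.20 (SE 0.28, adjusted p = 0.806), but a further retained probe gave -0.82 (SE 0.33, adjusted p = 0.193), so its direction depended on the probe. Of 21 members with more than 1 retained probe, 13 had the same sign in both. The neuronal pore Cacna1a, named after its values were seen, was called lower after 75th percentile scaling only (-0.50, adjusted p = 0.0435). A further retained probe of Cacna1a gave 0.19, and 0.07 after 75th percentile scaling (adjusted p = 0.827), so its direction, too, depended on the probe. The accessory subunits Cacna2d1 and Cacnb2, which bring L-type pores to the membrane, differed by 0.15 (95% confidence interval -0.37 to 0.66) and 0.03 (-0.55 to 0.61). Cacnb2 turned to -0.10 after 75th percentile scaling and gave -0.58 in a further retained probe.

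**Figure D4:**
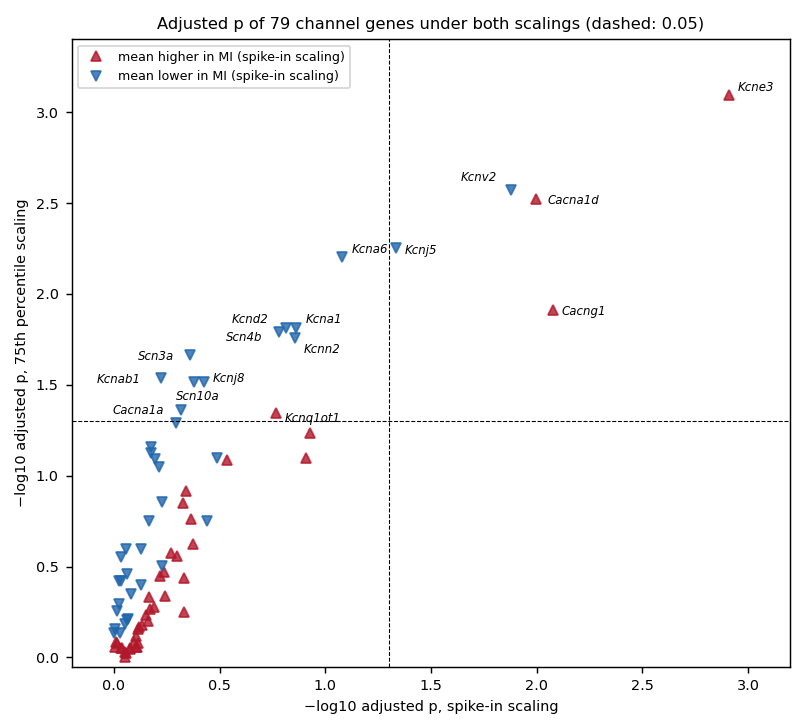
Adjusted p of 79 of the 83 retained channel genes as −log10 after spike-in scaling (horizontal axis) and after 75th percentile scaling (vertical axis), with dashed lines at 0.05. Upward triangles mark a mean that was higher in MI mice and downward triangles a mean that was lower. The 5 genes in the upper right quadrant passed under both scalings, and 11 passed only under the 75th percentile, of which 10 were lower.

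Proteins that assemble with, anchor or regulate these channels were examined as a separate list. Of 20 such partner genes 19 were retained and none was called after spike-in scaling. After 75th percentile scaling 5 were called lower, next to 11.9% of all genes, and 1 higher, next to 10.4%. The lower ones were Abcc8 and Abcc9, the regulatory subunits of ATP-sensitive channels (-0.71 and -0.69), the scaffold Akap9 (-0.53), the membrane anchor Ank2 (-0.48) and the ubiquitin ligase Nedd4l (-0.39). The caveolar protein Cav3 was called higher (0.61). Their adjusted p-values lay between 0.00564 and 0.0452. The gap junction gene Gja1 differed by 0.01 (SE 0.26) after spike-in scaling.

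The groups did not overlap in 8 of the 83 members after spike-in scaling, next to 12.7% of all genes, 5 with MI above sham (9.04% of all genes) and 3 with MI below (3.62%). After 75th percentile scaling they did not overlap in 21 members, next to 30.5% of all genes. In 5 of them, or 6.02% of the members, MI lay above sham, next to 13.3% of all genes, and in 16, or 19.3%, below, next to 17.2%. Of the 21 core genes described here that were not called after spike-in scaling, 17 had a 95% confidence interval within a 2-fold change in either direction. For the other 4 these 8 arrays left a change of 2-fold within the interval, with the lowest lower limit at -1.49.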

How the data were processed

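The labels gave the group and replicate of each mouse, and all 8 arrays lay on 1 slide, in 2 rows with 2 mice of each group per row. Per the file headers, the deposited intensity values came from Feature Extraction 11.0.1.1 as processed signals, with local background and spatial trends removed and no normalization between arrays. The median foreground and background intensities, as deposited, served an alternative. The authors' log2 values were made from spots well above background and normalized with the spike-ins (limma and vsn packages). Here, log2 processed signals were shifted by the mean of the spike-in probes, outlier spots were left out and spots of a probe were averaged. One spot of Kcnj13 (MI replicate 2) was left out in this way, so this gene had 3 MI values. No additive constant was used, since the constants of an own vsn fit (166 to 257, against 3.16 to 19.6 in the authors' values) reach the signal of weak probes. Limma 3.58.1 (R 4.3.3) compared the groups without covariates over 34038 probes, and exact two-sided permutation tests covered all 70 label arrangements. The test was checked on simulated data. Other computations used Python 3.11.15, numpy 2.4.6, pandas 2.3.3, scipy 1.17.1 and matplotlib 3.10.9.

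Alternatives were the 75th percentile of each array, the vsn model, quantile normalization, normexp (offset 50) on median signals, the authors' values, other detection filters, dim spots set to missing, the methods' t-test, significance analysis of microarrays, trended and robust limma, the replicate number or slide row as a block, each row alone, the mean over probes and each mouse left out. Leaving out mice and the replicate block under 75th percentile scaling were added after seeing the data. The genes named are a core list of cardiac channels plus other members that were called or that changed over 2-fold without overlap, and genes outside this rule are said to have been picked from their values. A few members are included in the counts but are not reported singly here. The members and lists were chosen with earlier results of these data known. Symbols and promoter sequences came from RefSeq (GRCm38.p6). Precision is limited by the number of arrays.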

Additional observations from a re-analysis of the deposited data

Results flagged for a closer look

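In 5 of 52 groups of 4 mice tested among the named genes, MI replicate 2 stood apart from the other MI mice by more than the gap allowed by Dixon's criterion, which chance exceeds in about 1 in 20 groups. Its log2 signal was 7.40 in Cacna1h, where the other MI mice had 8.47 to 8.60, and 10.31 in Kcnj5, next to 11.47 to 11.58. It was 8.841 in Kcnj8, next to 8.95 to 8.965, and 6.551 in Kcne3, next to 7.12 to 7.20. It was 5.283 in Kcnv2, next to 6.37 to 6.56. All 5 values, taken after spike-in scaling, were the lowest of their group. After 75th percentile scaling MI replicate 2 was the highest MI mouse in Kcnj8 (9.211, next to 8.679 to 8.866). In Kcne3 it then lay within the range of the other MI mice (6.921, next to 6.834 to 7.112). In Cacna1h, Kcnj5 and Kcnv2 it remained the lowest. MI replicate 2 was the lowest MI mouse in 74 of 82 channel genes after spike-in scaling and in 25 of 82 after 75th percentile scaling.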

How the results depend on the processing

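Kcne3 was called under every alternative except within the first row of the slide. The calls of Cacna1d and Cacng1 were lost in the authors' values, with the vsn model, without a detection filter, with dim spots missing, with the methods' t-test and within either row, and that of Cacna1d with normexp. Detection on all 8 arrays removed both. Kcnj5 and Kcnv2 were not called with the vsn model, without a filter, with the t-test or within the second row, and Kcnj5 also with significance analysis of microarrays, the row block, the first row alone and 5 of 8 mice left out. The t-test and the missing filter left the log2 fold changes as they were, while the vsn model gave 0.39 for Kcne3, 0.12 for Cacna1d, 0.11 for Cacng1, -0.46 for Kcnv2 and -0.96 for Kcnj5, and normexp 0.55, 0.18, 0.27, -1.02 and -1.10. The main count of 5 channel genes became 17 with the 75th percentile, 17 with quantile normalization and 17 with normexp, 10 with trended and robust limma, 3 with dim spots missing, and 1 each with the vsn model, without a detection filter, with the methods' t-test after adjustment, within the first row and within the second row. Significance analysis of microarrays, the authors' values, detection on all 8 arrays and the row block each gave 4. Over 2-fold, the count of 5 became 7 with the 75th percentile, next to 5.21% of all genes, and 7 with quantile normalization. It fell to 0 with the vsn model, 2 with normexp, 3 with the authors' values, 3 with detection on all 8 arrays, 3 with dim spots missing, and 1 without a filter, with the t-test and within either row. The 1857 probes called became 5947 with the 75th percentile, 6173 with quantile normalization, 7057 with normexp, 3276 with trended and robust limma, 1008 without a filter, 744 with the t-test, and 540 and 464 within the rows. The cause of these changes was not tested.

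With the replicate number as a block, 11 channel genes and 4307 probes were called, and 12 and 4075 with the block under 75th percentile scaling, where Cacnb2 (-0.10), Hcn2 (-0.019) and Kcnj11 (-0.080) kept the turned sign of that scaling. Deviations from the group means, correlated across probes, gave r = 0.20, 0.04, -0.07 and 0.01 between same-numbered mice. This correlation does not register a shift common to all probes of an array. Such a shift between the spike-ins and the 75th percentile was 0.34 in MI replicate 2 and 0.38 in sham replicate 2. It had opposite signs in the replicates numbered 4 (-0.11 and 0.12). The labels name no pairs, so the main fit used no block, and whether the numbers mark pairs was not settled.

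With a mouse left out, under either scaling, the counts ranged from 4 to 18 channel genes, 4 to 9 over 2-fold and 1343 to 6354 probes. The signs that turned belonged to genes that were not called. They turned for Cacnb2 (-0.10), Hcn2 (-0.019) and Kcnj11 (-0.080) with the 75th percentile, Cacnb2 (-0.10) and Kcnj11 (-0.062) with quantile normalization, and Cacnb2 (-0.079) and Kcnj11 (-0.053) with normexp. Within the first row Cacna1g (-0.29), Cacnb2 (-0.17) and Kcnj11 (-0.22) turned, and within the second Hcn2 (-0.034), Kcnh2 (0.22), Kcnip2 (0.039), Kcnj12 (0.064), Kcnk3 (0.16) and Kcnq1 (0.043). The mean over probes turned Cacna1g (-0.31), Cacnb2 (-0.28) and Kcna5 (0.029). With a mouse left out, log2 fold changes ranged from -0.044 to 0.45 for Cacna1g, -0.021 to 0.29 for Cacna2d1, -0.31 to 0.16 for Cacnb2, -0.10 to 0.21 for Hcn2, -0.40 to 0.053 for Kcnh2, -0.28 to 0.21 for Kcnip2, -0.18 to 0.32 for Kcnj11, -0.25 to 0.082 for Kcnj12, -0.53 to 0.13 for Kcnj2 and -0.29 to 0.15 for Kcnk3. The median of the members turned from 0.04 to -0.08 with the 75th percentile. Weak probes, among them Kcnj2, Cacna1d and Cacng1, limit what these arrays resolve.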
